A study of Mus musculus with 9 samples.

Results

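The blood vessels of mouse skin were examined through 42 genes: 25 of blood endothelium, 3 of lymphatic endothelium, 8 of mural cells (the smooth muscle cells and pericytes around the vessel wall) and 6 secreted ligands that act on vessels. They were chosen by name, and every probe set that the platform annotation gives to one of these genes alone was taken, which gave 61 of the 12488 probe sets of the array and 41 of the 42 genes. Esam had no probe set. Of the 61 probe sets, 44 were bright enough to be tested (signal no lower than the array's 40th percentile on 4 or more of the 9 arrays), and they read 34 genes. Each of the 44 reached that level in mice of both groups, so none was kept through one group alone. The genes that did not pass were Icam2, Sele, Selp, Nos3, Vegfc, Angpt1 and Angpt2.

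RNA came from whole skin of C57BL/6-background mice that had received no ultraviolet B. One group was 5 CD1d knockout mice (Cd1d -/-), which lack the molecule that presents lipid antigens to NKT lymphocytes, and the other 4 wild-type mice (Cd1d +/+), matched to them in age and sex, with no age stated. Each mouse was hybridised to its own Affymetrix MG-U74 array. Values are Microarray Suite 5.0 (MAS5) signals in arbitrary units, given as mean ± SD over the 5 knockout and the 4 wild-type mice, and log2 differences are knockout minus wild type. The targeted gene Cd1d1 had signals of 60.3 ± 12.7 (knockout) and 109 ± 16.7 (wild type) without overlap (limma adjusted p = 0.242). Whether its probes lie in the deleted part is not known. Arrays whose deposited values carry 7 decimals (2 knockout, 3 wild type) and 9 decimals (3 knockout, 1 wild type) may differ in export, and values within each class are given beside the leading results. In whole skin, fewer cells of a type and less RNA per cell cannot be told apart, and different genes' signals cannot be ranked against each other.

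Skin vessels are built from an endothelial tube, sealed by junction proteins and steered by receptor kinases of the VEGF and Tie families, and from mural cells that contract or wrap the capillaries. Blood endothelium also controls clotting, vascular tone and the exit of leukocytes through inducible adhesion molecules. Lymphatic capillaries drain fluid and immune cells and depend on the receptor Flt4 and its ligand Vegfc. In skin, follicles and epidermis are known sources of Vegfa, and arrector pili muscle and the follicle's dermal sheath share contractile genes with vascular smooth muscle.

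No vascular gene passed the test between knockout and wild-type skin. Of the 44 probe sets, 0 had a limma adjusted p under 0.05, and the smallest was 0.399. Among all 7658 tested probe sets 4 passed (0.0522%), and by gene 2 of 5855 (0.0342%). At an unadjusted p under 0.05 limma gave 5 of the 44, of which 3 were lower and 2 higher in the knockout. Among all probe sets that share was 9.40%, made up of 3.96% lower and 5.45% higher. Counted by gene, with each gene read by its brightest kept probe set, 4 of 34 genes (11.8%) had such a p, 3 lower and 1 higher, against 8.56% of all 5855 genes (3.83% lower and 4.73% higher). The groups did not overlap for 3 of the 34 genes (8.82%), Tie1 and Ace lower and Rgs5 higher, against 3.11% of all genes (1.45% lower and 1.66% higher). The 95% interval of the difference included 0 for the other 30 genes, Cldn5 being the fourth whose interval did not. Over the 34 genes the interval was 0.55 to 1.86 wide on the log2 scale, with a median width of 0.85, which is what 4 to 5 mice a group allow.

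**Figure D1:**
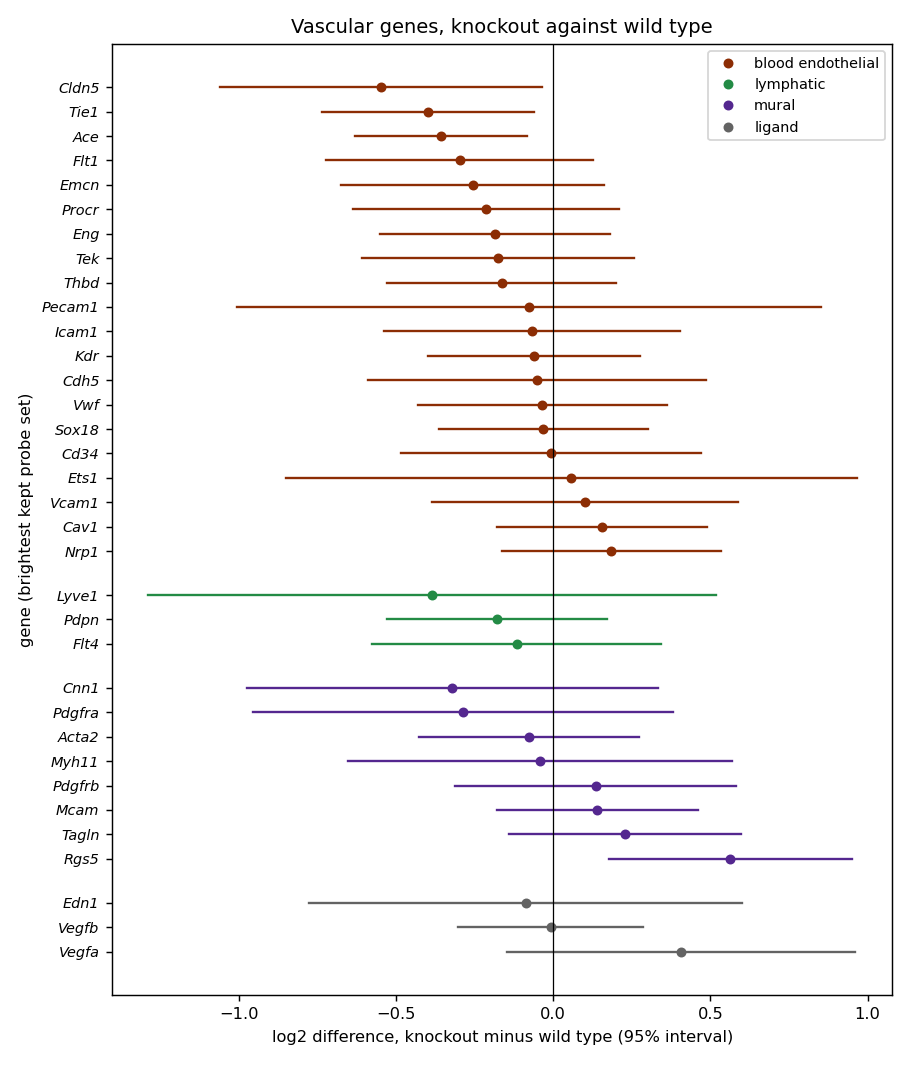
Log2 difference, knockout minus wild type (horizontal axis), for the 34 measured genes (rows), each by its brightest kept probe set; points are the limma estimates from 5 knockout and 4 wild-type mice and bars their 95% intervals, coloured by compartment. The intervals of Cldn5, Tie1 and Ace lie below 0 and that of Rgs5 lies above it, and the rest include 0.

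Among mural genes the difference with the smallest p was that of Rgs5, a regulator of G-protein signalling that marks pericytes, which read higher in knockout skin on both of its probe sets. On the brighter probe set the 5 knockout mice read 111.6, 105.7, 129, 138.8 and 116.9 (knockout 1 to 5), and the wild-type mice 101, 92, 60.6 and 76.7 (wild type 1 to 4). Each knockout mouse was above each wild-type mouse, although knockout 2 and wild type 1 lay close together. The means were 120.4 ± 13.4 and 82.6 ± 17.8, a log2 difference of 0.56 (SE 0.18, 95% interval 0.18 to 0.95) or 1.48-fold, with a limma p of 0.00823 and an adjusted p = 0.399. The dimmer probe set read 68.7, 70.6, 73.2, 81 and 57.4 in the knockout mice and 56.9, 46.1, 41.5 and 58.4 in the wild-type mice, so that knockout 5 fell between wild type 1 and wild type 4 and the groups overlapped only there. Its log2 difference was 0.47 (SE 0.20), or 1.39-fold, with a limma adjusted p = 0.498. Across the 9 mice the log2 signals of both probe sets had a Pearson r of 0.83, given as a description, since they share arrays and transcript. Within the 7-decimal arrays the difference on the brighter probe set was 0.53, and within the 9-decimal arrays, with 1 wild-type mouse, it was 0.34. With the decimal class as a block in the fit it was 0.46 (limma adjusted p = 0.574).

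The 250 bases before the RefSeq start of the 3 genes without overlap are shown so that the genes can be placed, in build GRCm38.p6. Capitals mark the letters CAGGAA or, for the other strand, TTCCTG, a form of the core that ETS factors such as the member Ets1 read. Only this form was searched for, so a window or stretch without capitals can still hold other forms of that core. Rgs5 lies at chr1:169655251-169655500 on the plus strand, Tie1 at chr4:118489850-118490099 on the minus strand and Ace, at the more upstream of its 2 starts, at chr11:105967698-105967947 on the plus strand.
Rgs5: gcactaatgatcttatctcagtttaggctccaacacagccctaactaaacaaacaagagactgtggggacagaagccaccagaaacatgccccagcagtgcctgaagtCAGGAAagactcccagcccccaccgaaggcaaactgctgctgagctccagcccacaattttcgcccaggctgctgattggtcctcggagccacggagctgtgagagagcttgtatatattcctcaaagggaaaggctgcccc
Tie1: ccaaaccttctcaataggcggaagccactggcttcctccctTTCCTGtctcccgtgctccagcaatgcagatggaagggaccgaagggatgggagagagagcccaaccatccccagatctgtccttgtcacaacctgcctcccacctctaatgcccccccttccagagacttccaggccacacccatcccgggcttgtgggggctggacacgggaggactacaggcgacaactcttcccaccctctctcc
Ace: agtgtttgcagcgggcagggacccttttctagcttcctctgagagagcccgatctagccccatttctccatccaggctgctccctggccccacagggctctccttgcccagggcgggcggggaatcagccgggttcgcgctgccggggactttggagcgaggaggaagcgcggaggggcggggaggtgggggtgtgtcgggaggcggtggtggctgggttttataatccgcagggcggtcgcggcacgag
The letters occur once before Rgs5, from 142 to 137 bases ahead of the start, once before Tie1, from 209 to 204 bases ahead, and not before Ace. They occur in 25.7% of all 32851 windows of this length in the table. Among the blood endothelial genes with an entry, 5 of 15 hold them (Emcn, Cd34, Sele, Tek and Tie1), as do 2 of 5 mural genes (Rgs5 and Pdgfra), 1 of 4 ligand genes and 0 of 2 lymphatic genes, so the share over the 26 member genes, 30.8%, is close to that of all windows.

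The other surface genes of pericytes and mural cells differed less. Mcam, an adhesion molecule of the vessel wall, read 290.7, 275.3, 278.6, 215.4 and 317.2 in the knockout and 208.4, 244.9, 256.9 and 287.9 in the wild-type mice (log2 0.14, limma adjusted p = 0.797). The groups overlapped widely, with the lowest knockout value in knockout 4. Pdgfrb, the PDGF receptor that recruits pericytes, read 64.9 to 86.7 in the knockout against 49 to 82.2 (log2 0.13, limma adjusted p = 0.867). Pdgfra, the PDGF receptor of dermal fibroblasts, read 528.8, 534.2, 381, 685.8 and 394.7 against 1107.7, 744.9, 466 and 341.5 on its brighter probe set (log2 -0.29, limma adjusted p = 0.802). Its wild-type values ran from the lowest to the highest of all 9 mice, and without wild type 1 the difference was 0.005.

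The contractile genes of smooth muscle showed no common shift. Acta2, smooth muscle actin, had a mean signal of 663 ± 105 in the knockout against 701 ± 130 (log2 -0.08, limma adjusted p = 0.914), and the smooth muscle myosin Myh11 451 ± 203 against 435 ± 74.5 (log2 -0.04, limma adjusted p = 0.981). Tagln, the actin-binding protein transgelin, read 512.1, 624.6, 395.7, 681 and 544 against 571.5, 434.1, 448 and 412.3 (log2 0.23, limma adjusted p = 0.714). Its knockout values included both the lowest and the highest of the 9 mice. Cnn1, calponin, read 57.1, 74.3, 59.5, 136.9 and 77.2 against 126.7, 130, 84.5 and 60.8 (log2 -0.32, limma adjusted p = 0.782). Knockout 4 had the highest signal of Acta2's knockout group as well as the highest of Tagln, Myh11 and Cnn1 among all 9 mice, and the median of these 4 genes, centred on the mean of the 9 mice, was 0.56 there against -0.32 to -0.04 in the other knockout mice. A separate list of 16 measured genes that are no members, mostly mural and smooth muscle genes, had 7 higher and 9 lower, a median log2 of -0.05 and 0 called. It also holds the skeletal muscle marker Mylpf (log2 -0.18) and the ligands Pdgfa (log2 0.01) and Pdgfb (log2 0.06). Its smallest p values belonged to Aoc3, an amine oxidase of smooth muscle and adipocytes (441 against 277, log2 0.67, limma adjusted p = 0.338), and to the tropomyosins Tpm2 (log2 -0.39, limma adjusted p = 0.420) and Tpm1 (log2 0.49, limma adjusted p = 0.435). Tpm2 is also a gene of skeletal muscle, and 11 of 11 skeletal muscle markers had lower values in the knockout, with summed signals of 39694 to 46865 against 44040 to 60604, whose part in this value was not tested. Of 9 measured adipocyte markers, 7 were higher and 2 lower in the knockout (median log2 0.14). Their part in the Aoc3 value was not tested either.

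In blood endothelium the lower signals with the smallest p values were those of Ace and Tie1. Ace, the enzyme on the endothelial surface that makes angiotensin II, read 113.6, 126.9, 109.8, 120.8 and 105.5 in the 5 knockout mice, and the wild-type mice 139.5, 160.7, 148.7 and 141.5, on its brightest probe set. All 5 knockout values lay below all 4 wild-type values, with little spread in either group (115 ± 8.57 and 148 ± 9.59). The log2 difference was -0.36 (SE 0.12, 95% interval -0.63 to -0.08), with wild type 1.28-fold above knockout, a limma p of 0.0147 and an adjusted p = 0.430. It was -0.32 within the 7-decimal and -0.32 within the 9-decimal arrays, and -0.32 with that class as a block (limma adjusted p = 0.597). A second Ace probe set stayed below the filter but also had no overlap, at 17.4 to 34.6 in knockout and 35 to 46.5 in wild-type mice. The third was below the filter too and did overlap, at 4.4 to 35.2 against 5 to 23.8.

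Tie1, a receptor kinase of endothelium that pairs with the angiopoietin receptor Tek, read 67.2, 99, 92.9, 90.9 and 94.3 in the knockout and 112.8, 116.1, 110.4 and 125.3 in the wild-type mice on its brighter probe set. The groups did not overlap, and knockout 1 was far below the others. The means were 88.9 ± 12.5 and 116 ± 6.53, a log2 difference of -0.40 (SE 0.15, 95% interval -0.74 to -0.06), with a limma p of 0.0248 and an adjusted p = 0.463. It was -0.30 without knockout 1, -0.52 within the 7-decimal arrays and -0.28 within the 9-decimal arrays, and -0.43 with the class as a block (limma adjusted p = 0.575). The dimmer kept probe set read 53.7 ± 3.67 against 62.2 ± 11.6 with overlapping groups (log2 -0.19, limma adjusted p = 0.795). Tek itself read 78.0 ± 11.7 against 89.3 ± 22.9 (log2 -0.17, limma adjusted p = 0.810).

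Of the VEGF receptors, Kdr, the main signalling receptor, was nearly equal at 86.8 ± 9.98 and 90.3 ± 8.07 (log2 -0.06, 95% interval -0.40 to 0.28). Flt1, the high-affinity receptor that limits VEGF action, read 55.8, 64.9, 72.5, 48.4 and 46.9 against 74.9, 66.4, 66.9 and 71.9 (log2 -0.30, limma adjusted p = 0.663). Its overlap came from knockout 3. The co-receptor Nrp1, which neurons and other cells also express, read 382.9, 346, 403.1, 534.2 and 491.2 against 402.4, 301.8, 396.9 and 408.4 (log2 0.19, limma adjusted p = 0.764), so that knockout 4 and 5 lay above the wild-type range. Its dimmer probe set had a log2 difference of 0.08. Endoglin, the TGF-beta co-receptor encoded by Eng, read 599.9, 518.2, 523.3, 920.1 and 653.6 against 705.9, 702.5, 795 and 661.2 (log2 -0.19, limma adjusted p = 0.773), and knockout 4 lay above the wild-type range with the other knockout mice below it.

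**Figure D2:**
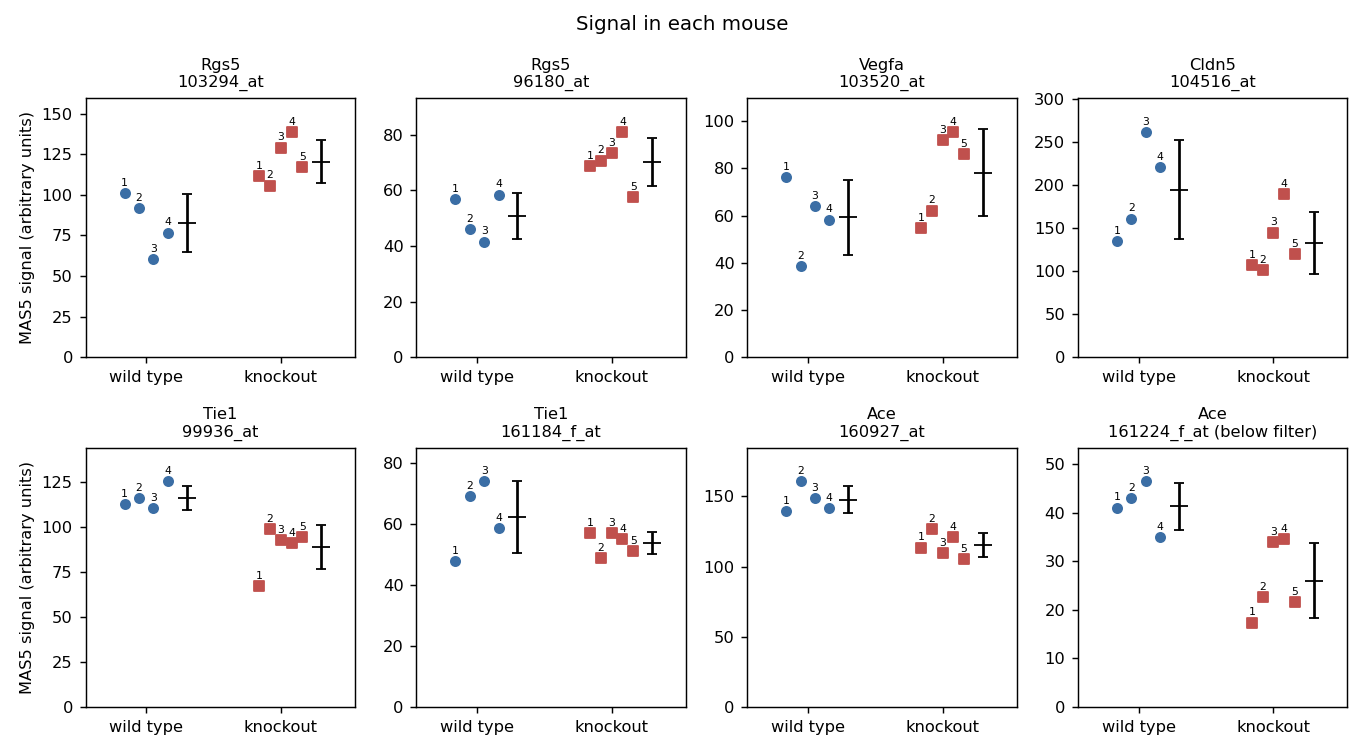
MAS5 signal (vertical axes, from 0) of each mouse for 5 vascular genes on 8 probe sets; circles are wild-type and squares knockout mice, numbered by replicate, and the black marks beside them are the mean ± SD. The brighter probe sets of Rgs5 and Tie1 and the 2 Ace probe sets drawn separate the groups (the third of Ace, not drawn, overlaps at 4.4 to 35.2 against 5 to 23.8), while the dimmer probe sets of Rgs5 and Tie1, Vegfa and Cldn5 overlap.

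Among the junction genes the difference with the smallest p was that of Cldn5, the tight junction claudin of endothelium. It read 107.2, 101.3, 144.9, 189.8 and 120.2 in the knockout and 135.5, 161.2, 262.4 and 221.4 in the wild-type mice. Knockout 3 and 4 lay inside the wild-type range and the other 3 knockout mice below it. The log2 difference of -0.55 (SE 0.23, 95% interval -1.06 to -0.04) had a limma p of 0.0377 and an adjusted p = 0.508. It was -1.02 within the 7-decimal arrays but 0.14 within the 9-decimal arrays, where wild type 1 is the only wild-type mouse. The adherens junction cadherin Cdh5 had nearly the same mean in both groups, at 123 ± 45.3 and 123 ± 22.4 (log2 -0.05, limma adjusted p = 0.967). Pecam1, the pan-endothelial adhesion molecule CD31, read 115.9, 113.6, 118.8, 55.1 and 98.9 against 34.2, 160.2, 150.7 and 132.1 (log2 -0.08, limma adjusted p = 0.974). One mouse in each group stood well below the others, and without wild type 1 all 5 knockout mice would lie below the remaining wild-type mice.

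Emcn, the sialomucin of capillaries and veins, had probe sets that pointed opposite ways. On the brighter it read 89.2, 74.9, 115.2, 95.1 and 85.2 in the knockout against 82.5, 122.9, 99.5 and 138.4 (log2 -0.26, limma adjusted p = 0.717). On the dimmer it read 76.8, 73.4, 87.4, 94.6 and 102.5 against 67.8, 74.6, 66.4 and 63.7 (log2 0.34, limma adjusted p = 0.552). The groups overlapped on both, on the dimmer only through knockout 2. Cd34, a surface mucin that endothelium shares with dermal fibroblasts and follicle stem cells, read 731 ± 206 against 725 ± 162 (log2 -0.007, limma adjusted p = 0.996) on its brighter probe set. On the dimmer it read 498 ± 140 against 406 ± 89.8 with overlapping groups (log2 0.28, limma adjusted p = 0.721).

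The leukocyte adhesion molecules were at low signals or differed little. The inducible selectins Sele and Selp were below the filter, Sele at 8.6 to 32 against 6.5 to 27.6 and Selp at 6.7 to 10.3 against 8.9 to 15.5. Icam1, the integrin ligand of activated endothelium and other cells, read 96.1 ± 26.5 against 98.2 ± 12.6 (log2 -0.07, limma adjusted p = 0.951). Vcam1, on its one kept probe set, read 55.5 ± 10.3 against 51.3 ± 6.70 (log2 0.10, limma adjusted p = 0.920). Icam2, present on resting endothelium, was below the filter at 10 to 37 against 28.8 to 39.1.

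On their brightest kept probe sets the 4 measured genes of clotting and tone, Ace among them, had lower log2 means in the knockout. Vwf, the platelet-binding multimer, read 216 ± 45.0 against 219 ± 32.7 (log2 -0.03, limma adjusted p = 0.972). The anticoagulant receptors Thbd and Procr differed by -0.16 and -0.21 (limma adjusted p values 0.793 and 0.773), although the dimmer probe set of Thbd differed by 0.06. Procr read 122.4, 198.1, 113.5, 134.2 and 150.7 against 136.1, 145.5, 167.2 and 216.2. Only knockout 1, 3 and 4 lay below the wild-type range of Procr. The nitric oxide synthase Nos3 was below the filter at 9.8 to 24.6 against 13 to 21.8. The caveolar protein Cav1, abundant in adipocytes too, read 1144 ± 180 against 1027 ± 163 (log2 0.16, limma adjusted p = 0.791), the transcription factor Sox18 205 ± 32.4 against 210 ± 30.4 (log2 -0.03) and Ets1 52.1 ± 21.9 against 46.1 ± 13.3 (log2 0.06). The dimmer kept probe set of Cav1 differed by -0.31 (limma adjusted p = 0.806). Of the blood endothelial genes measured, 16 of 20 had lower log2 means, with a median log2 of -0.07, beside 48.7% lower and a median of 0.007 over all 5855 genes. Among the 16, Cdh5 and Cd34 had slightly higher mean signals in the knockout. Emcn, Cd34 and Thbd, also among the 16, were higher on their other kept probe set. Cav1, among the higher genes, was lower on its other kept probe set. A list of other blood endothelial genes, which are no members, had 10 of 16 lower, a median of -0.06 and 0 called. Its smallest p was that of Plat, tissue plasminogen activator (336 against 452, log2 -0.43, limma adjusted p = 0.405). Efnb2, next by p, was higher in the knockout (819 against 691, log2 0.28, limma adjusted p = 0.663).

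The lymphatic genes were lower in mean but varied widely between mice. Lyve1, the hyaluronan receptor of lymphatic endothelium and of some macrophages, read 91.2, 90.7, 68.2, 180.7 and 338.4 in the knockout and 174.5, 108.5, 198.3 and 209.4 in the wild-type mice (log2 -0.39, 95% interval -1.29 to 0.52, limma adjusted p = 0.802). Knockout 1 to 3 lay below the wild-type range and knockout 5 above it, and without knockout 5 the difference was -0.74 (limma adjusted p = 0.647). It was -0.86 within the 7-decimal and -0.12 within the 9-decimal arrays. Flt4, the receptor of Vegfc, read 116.6, 120.5, 142.5, 102.5 and 118.9 against 128.9, 81.1, 166.6 and 161.9 (log2 -0.12, limma adjusted p = 0.895). Wild type 2 was the lowest of all 9 mice, and without it all but knockout 3 would lie below the wild-type mice. Podoplanin, encoded by Pdpn and also made by fibroblasts and keratinocytes, read 126.1, 115.8, 112.5, 139.8 and 116.8 against 148.1, 166.7, 142 and 102.8 (log2 -0.18, limma adjusted p = 0.773). Here wild type 4 alone lay below the knockout values.

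Other lymphatic genes, which are no members, had 4 lower log2 means among 6, a median of -0.13 and 0 called. Stab1, a scavenger receptor of lymphatic and sinusoidal endothelium and of macrophages, read 273 against 368 (log2 -0.42, limma adjusted p = 0.461), and Foxc2, a transcription factor of lymphatic valves, 48.6 against 68.2 (log2 -0.52, limma adjusted p = 0.520). Foxc2 lay near the filter level, which it reached on 7 of the 9 arrays. Thy1, next by p, was higher in the knockout (1263 against 1031, log2 0.36, limma adjusted p = 0.730), as was Reln (log2 0.08). Prox1, the defining factor of lymphatic endothelium, was below the filter. Beside these values, 12 of 12 measured macrophage markers were lower in the knockout, with summed signals of 11559 to 14028 against 14314 to 16900 and no single marker below 101. Their part in the Lyve1 and Stab1 values was not tested.

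Of the ligands, Vegfa, the main growth factor for vessels, read 54.7, 62.1, 91.9, 95.5 and 86.1 in the knockout and 76.3, 38.5, 63.9 and 58.3 in the wild-type mice. Knockout 3, 4 and 5 lay above every wild-type mouse and knockout 1 and 2 inside their range. The log2 difference was 0.41 (SE 0.25, 95% interval -0.15 to 0.96, limma adjusted p = 0.656), and 0.21 without wild type 2. It was 0.16 within the 7-decimal and 0.26 within the 9-decimal arrays. Vegfb, a ligand of Flt1, read 294.3, 250.8, 350.6, 256.2 and 267.5 against 279, 287.2, 315.5 and 254.6, a log2 difference of -0.008 with an interval of -0.30 to 0.29. Its sign changed in 7 of 23 alternatives, so it has no direction. The vasoconstrictor endothelin, Edn1, read 130.2, 121.8, 83.1, 47 and 68.9 against 113.7, 56.2, 100.6 and 100.4 (log2 -0.09, limma adjusted p = 0.955). The spread within the knockout group covered the whole wild-type range.

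The lymphatic growth factor Vegfc and the Tek ligands Angpt1 and Angpt2 stayed below the filter. Vegfc read 15.4 to 31 against 15.5 to 31.9, Angpt1 23.8 to 29.5 against 16.1 to 35.4 and Angpt2 31.6 to 45.8 against 34 to 43.3. A list of genes of the response to hypoxia, which also induces Vegfa, had 11 lower log2 means among 13, a median of -0.20 and 0 called. Over all genes 48.7% were lower. In this list Hmox1, haem oxygenase, read 1333 against 1778 without overlap (log2 -0.42, limma adjusted p = 0.379). Hif1a, a factor of the response that the list includes, was higher (log2 0.19, limma adjusted p = 0.597).

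Compared by compartment, the median log2 difference was -0.07 for 20 blood endothelial genes, -0.18 for 3 lymphatic genes, 0.05 for 8 mural genes and -0.008 for 3 ligands. These medians are descriptions without a test. The median of centred signal in each mouse ran for blood endothelium from -0.23 to 0.07 (knockout) against 0.01 to 0.20 (wild type), with only knockout 1, 2 and 5 below the wild-type range. For lymphatic genes it ran from -0.19 to 0.12 against -0.41 to 0.43, and for mural genes from -0.13 to 0.39 against -0.25 to 0.19. The mural median changed sign under array weights (-0.03), with the filter at the 60th percentile (-0.04), within the 9-decimal arrays (-0.02), without knockout 4 (-0.03) and without wild type 2 (-0.003), so no direction can be given for mural genes as a group. Without Pdgfra, the receptor of dermal fibroblasts, 7 mural genes had a median of 0.13, with 4 higher and 3 lower. Their median per mouse overlapped (-0.12 to 0.43 against -0.20 to 0.18), and the alternatives were not run on them. The blood endothelial median stayed below 0 but was -0.19 without knockout 4 and -0.27 within the 7-decimal arrays. Of 11 role groups with a measured gene, the medians of 9 overlapped between the groups of mice. They did not overlap for the 4 clotting and tone genes (-0.18 to -0.03 against 0.05 to 0.16) and the 4 pericyte receptor and surface genes (-0.03 to 0.28 against -0.13 to -0.06), groups that include Ace and Rgs5. The pericyte group includes Pdgfra as well. Ace and Rgs5 had no overlap by themselves, as had 3.11% of all genes. No such share was taken over other gene groups of this size, and some role groups are a single gene. These groups are therefore described only.

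**Figure D3:**
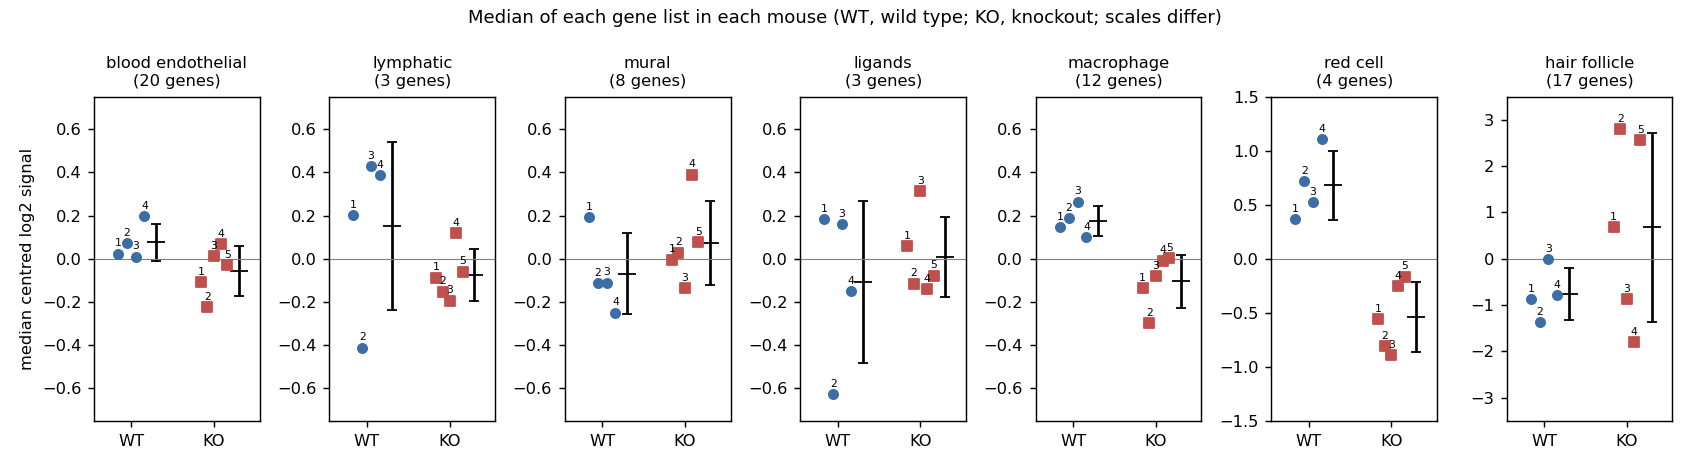
Median over each gene list of log2 signal centred on the mean of the 9 mice (vertical axes, whose scales differ), one point per mouse numbered by replicate, with mean ± SD beside them; the 4 vascular lists are shown with the macrophage, red cell and hair follicle lists. The vascular lists overlap between the groups, whereas the red cell and macrophage medians of all knockout mice lie below those of all wild-type mice, and the hair follicle medians spread from -1.79 to 2.81 within the knockout group.

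Markers of other skin components differed beside these values. Red cell genes had lower means in 4 of 4 cases (median log2 -1.19, summed signals of 1356 to 2043 against 3362 to 5094, no single value below 29.9). Among them the haemoglobin genes Hba-a1 and Hbb-b2 fell by 1.38 and 1.40 on the log2 scale (limma adjusted p = 0.00531 and 0.00896). The blood endothelial summed signals overlapped, at 3898 to 5519 against 4546 to 5033, and the part of blood content in the vascular values was not tested. Of the platelet genes on the array 0 passed the filter. Hair follicle markers had higher log2 means in 17 of 17 cases, with summed signals of 2563 to 38771 in the knockout and 2159 to 4547 in the wild-type mice. Their median per mouse was 0.68, 2.81, -0.86, -1.79 and 2.56 in knockout 1 to 5, against -1.38 to -0.004 in wild type. Knockout 3 thus lay inside the wild-type range and knockout 4 below it. With this median as a covariate the differences were 0.70 for Rgs5, -0.42 for Tie1 (both on the brighter probe set), -0.35 for Ace and -0.38 for Cldn5, with no adjusted p under 0.05.

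How far a member can be read depends on its probe sets. Of the 10 genes with 2 kept probe sets, 5 had the same sign on both (Rgs5, Tie1, Pdgfra, Nrp1 and Sox18) and 5 had opposite signs (Emcn, Cd34, Thbd, Edn1 and Cav1). Rgs5 was the gene whose probe sets agreed most closely across the 9 mice, with a Pearson r of 0.83, followed by Cd34 (0.76), Nrp1 (0.50) and Sox18 (0.49), while those of Tie1 (0.23), Edn1 (0.20) and Thbd (0.08) agreed little and those of Pdgfra (-0.15), Cav1 (-0.16) and Emcn (-0.25) not at all. These correlations share arrays and carry no test.

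**Figure D4:**
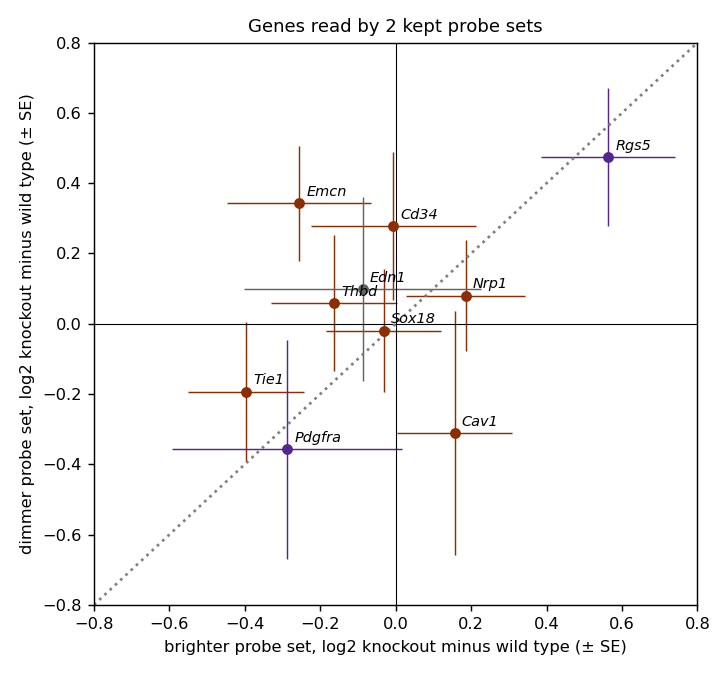
Log2 difference, knockout minus wild type, on the brighter (horizontal axis) and the dimmer (vertical axis) kept probe set of the 10 genes with 2, with SE bars from limma; brown marks blood endothelial, purple mural and grey ligand genes, and the dotted line marks equality. Rgs5 lies at 0.56 and 0.47, close to that line, whereas Emcn, Cd34, Thbd, Edn1 and Cav1 lie in the quadrants of opposite sign.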

How the data were processed

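RNA of whole skin was measured on 9 arrays. The authors deposited MAS5 signals (Microarray Suite 5.0, per the labels) on a natural log (ln) scale, settled from the values, since their exponentials are whole multiples of 0.1 to within 0.000597. Arrays had been scaled to a common target (mean signal, trimmed by 2% at each end, of 200.11 to 200.133). Arrays have no depth, so the number of mice limits precision, and low MAS5 signals are relatively imprecise.

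Values were converted to log2 without further normalisation. Control probe sets were left out, and the array's 40th percentile lay between 43.4 and 53.3. Genotypes were compared with limma 3.58.1 under R 4.3.3 (eBayes with trend, two-sided) over all 7658 kept probe sets with Benjamini-Hochberg adjustment, at a threshold of 0.05. The procedure was tested on simulated independent values. For recovery, that test required only that planted changes larger than any measured member difference be found. It therefore does not show that differences of the size seen here would be called. Genes were named from the platform annotation, a gene being read by its kept probe set of highest mean, and promoter windows came from RefSeq (GRCm38.p6, 26 of the 42 genes). Every member is accounted for. Values per mouse are given for members with a limma p under 0.05 or without overlap, then for those of smallest p in each compartment (up to 8 blood endothelial, 3 lymphatic, 5 mural and 4 ligand genes), and up to 3 genes of each other list are named. The labels call the samples individual mice. Pecam1 was a listed member, and only the printing of its values per mouse was added after they were seen. The promoter motif was also added after its values were seen. Members and lists were chosen with earlier results of these data known. Alternatives covered pseudocounts of 16 and 64, filters, scaling, variance settings, a hair follicle covariate, the decimal classes, the replicate number as a block, probe set choice and each mouse left out.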

Additional observations from a re-analysis of the deposited data

Results flagged for a closer look

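In 7 of 96 groups of values checked (44 probe sets and 4 compartment medians, in each genotype), 1 mouse lay apart by Dixon's test, where chance gives about 1 in 20. Pecam1 had a low value in knockout 4 (55.1) and in wild type 1 (34.2). Low values were also those of Tie1 on its brighter probe set in knockout 1 (67.2), Cav1 on its dimmer probe set in knockout 4 (18.7), Nrp1 on its brighter probe set in wild type 2 (301.8) and Thbd on its dimmer probe set in wild type 3 (70.5). Sox18 on its dimmer probe set was high in knockout 1 (227).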

How the results depend on the processing

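The count of 0 called member probe sets held in 23 of 23 alternatives, in which the smallest adjusted p of any member was 0.192 (Cldn5, array weights). The lymphatic, mural and ligand medians moved by less than the SD between mice in each alternative. That of blood endothelium moved by more with array weights (-0.20), within the 7-decimal arrays (-0.27) and without knockout 4 (-0.19), and with 1 mouse left out it ran from that value to -0.032 (without wild type 4); the cause was not tested. Over 25 probe sets of named members, 13 kept their sign in every alternative that could be fitted, among them both of Rgs5, the brighter of Tie1 and that of Ace, and the other 12 changed it in at least one. Same-numbered mice did not deviate together (correlations 0.11, -0.01, -0.05 and 0.02), and 1 of 4 knockout mice was closest to its own number. The values thus gave no sign that the numbers pair the mice, although 4 pairs are too few to exclude it. With the replicate number as a block 0 members and 1 of all probe sets were called; the block leaves knockout 5, the only mouse of its number, without weight, and the log2 differences were 0.57 for Rgs5 on its brighter probe set, -0.42 for Tie1 and -0.33 for Ace. Members near the filter level, such as Vcam1, Ets1, Flt1 and Vegfa, have folds that the low signal makes uncertain. A pseudocount shrinks log2 differences by construction, so its values do not measure that uncertainty. At pseudocount 64 Vegfa was 0.20. Rgs5 on its brighter probe set was 0.34 there, with a limma p of 0.00799 against 0.00823 in the main fit.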
